A study of Homo sapiens with 19 samples.

Results

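The 8 chemokine genes IL8 (the older symbol of CXCL8), CXCL1, CXCL2, CXCL3, CXCL5, CXCL6, CCL2 and CCL20 were read by symbol from a table of RNA sequencing counts for 23367 genes, and all 8 were found. The cells were SHEP TET21N, an established human neuroblastoma line with a MYCN transgene that doxycycline represses. MYCN-high cells were cultured with no doxycycline and MYCN-low cells in its presence, so the antibiotic went with the MYCN state in every comparison of the states. In each state there were cells after 72 h in 0.1 µg/ml doxorubicin, an anthracycline that breaks DNA through topoisomerase II, cells 3, 8 and 14 days after the drug was washed out, and untreated cells. Each group held replicates B and C, described as biological duplicates, except MYCN-low cells at 14 days, which had replicate B alone. There were 19 libraries in 10 groups. No untreated cells were matched to the later times, so time in culture and drug cannot be told apart.

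Library totals ran from 16547663 to 27664604 counts. Levels are given as CPM, counts for every 1000000 of the TMM-scaled library total. MYCN stood at 594 to 1420 CPM in the MYCN-high libraries and at 13.5 to 30.7 CPM in the MYCN-low libraries, as labelled. The 8 adrenergic neuroblastoma markers summed to 123 to 355 CPM in MYCN-high libraries and 59.9 to 158 CPM in MYCN-low libraries. PHOX2A was at 0 in all 19 libraries, while HAND2 averaged 115 CPM in untreated MYCN-high and 114 CPM in untreated MYCN-low cells. At 14 days HAND2 averaged 193 CPM in MYCN-high cells, against 46.0 CPM in the MYCN-low library. The 7 mesenchymal markers summed to 1640 to 2580 CPM in MYCN-high libraries and 4410 to 15800 CPM in MYCN-low libraries. Differences were tested with edgeR's quasi-likelihood test over 14793 genes that passed a filter on low counts. A gene is said to pass when its Benjamini-Hochberg adjusted p was under 0.05. Fold changes are on the log2 scale with a standard error worked back from the test, as the absolute fold change over the square root of the F statistic. Scaling to the ERCC spike-in RNAs in place of TMM, which moved the median of all genes by up to 2.51 on the log2 scale, turned no called chemokine change round. It ended every chemokine call below except those of IL8, CXCL1 and CCL2 between the states at 14 days. The fold changes themselves were at least as large under ERCC scaling for 33 of the 39 calls with no group at 0 (IL8 in MYCN-high cells after 72 h, 6.04 under ERCC scaling and 4.00 under TMM). In that comparison the median of all genes moved from 0.03 to 2.37, so such sizes include a shift of all genes. The spike-in share of counts was also uneven between replicates, at 0.0116% and 0.191% in the MYCN-high libraries after 72 h. In bulk RNA a lower level can come from fewer expressing cells or from less RNA per cell, and these cannot be told apart.

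Chemokines are small secreted proteins that draw leukocytes along a gradient. IL8, CXCL1, CXCL2, CXCL3, CXCL5 and CXCL6 are neutrophil attractants that act on the receptor CXCR2, which IL8 and CXCL6 share with CXCR1. CCL2 attracts monocytes through CCR2, and CCL20 attracts dendritic cells and T cells through CCR6. Their genes are classic targets of NF-kappaB, their messenger RNAs are short-lived, and several of them belong to the secretory programme of cells arrested by DNA damage.

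The 6 CXC genes lie in 1 cluster on chromosome 4. RefSeq promoters (build GRCh38.p14, 250 bases before to 50 bases after the start) were matched for 7 of the 8 genes, all but CCL2. The windows below are the 120 bases up to the start of the CXC genes, 5′ to 3′ on the strand of the gene, and are shown because they carry the same kappaB letters at nearly the same distance from the start. Capitals mark GGAATTTCC, the 9 letters searched on both strands.
IL8, chr4:73740449-73740568, plus strand: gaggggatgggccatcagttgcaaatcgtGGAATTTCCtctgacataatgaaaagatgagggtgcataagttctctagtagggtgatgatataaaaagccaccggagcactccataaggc
CXCL6, chr4:73836558-73836677, plus strand: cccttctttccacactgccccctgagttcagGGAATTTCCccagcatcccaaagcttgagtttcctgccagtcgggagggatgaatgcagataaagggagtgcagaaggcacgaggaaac
CXCL1, chr4:73869273-73869392, plus strand: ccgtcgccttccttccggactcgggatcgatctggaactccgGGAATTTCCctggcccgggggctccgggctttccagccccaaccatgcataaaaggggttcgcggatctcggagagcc
CXCL5, chr4:73998678-73998797, minus strand: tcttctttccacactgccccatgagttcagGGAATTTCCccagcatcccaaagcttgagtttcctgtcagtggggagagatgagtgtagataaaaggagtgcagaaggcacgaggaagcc
CXCL3, chr4:74038690-74038809, minus strand: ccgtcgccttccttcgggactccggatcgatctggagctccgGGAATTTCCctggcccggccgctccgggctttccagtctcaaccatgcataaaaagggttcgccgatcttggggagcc
CXCL2, chr4:74099196-74099315, minus strand: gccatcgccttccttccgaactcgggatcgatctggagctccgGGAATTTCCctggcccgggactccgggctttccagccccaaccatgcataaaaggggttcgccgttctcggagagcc
These letters were found in 6 of the 7 promoters and in 162 of 35116 RefSeq promoters of the same length (0.461%). Their first base lay at -91 in IL8, -89 in CXCL6, -78 in CXCL1, -90 in CXCL5, -78 in CXCL3 and -77 in CXCL2, counted from the start. The promoters are not independent, since CXCL5 and CXCL6 share 83.1% of aligned positions over the 300 bases and CXCL1 and CXCL3 share 82.5%.

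Other motifs were in few of the 7 promoters, or common in all promoters. The looser kappaB form GGGNNNNNCC was in 7 of 7 promoters, but also in 58.7% of all promoters, and it overlaps the stricter form. The AP-1 letters TGANTCA were in IL8 alone, at -137, against 7.71% of all promoters. The C/EBP letters TTGCNNAA were in CXCL2 alone, against 10.5%. The E-box CACGTG, a sequence MYC proteins can bind, was in 0 of 7, against 7.26%. A match describes the letters only.

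In every one of the 8 genes the highest library was MYCN-low replicate B at 14 days. IL8, the main neutrophil attractant of human tissue, had 25198 counts there (1283 CPM), which was 84.1% of its counts over all libraries and 27.8 times its next highest library. CXCL1 reached 126 CPM and CCL2 390 CPM in that library, 14.5 and 8.97 times their next highest. CXCL5 stood out least, at 21.4 CPM or 2.64 times the next library. Together the 8 genes summed to 1856 CPM in that library, against 4.67 to 98.7 CPM in the other 18. By level, IL8 ranked 57th of 23367 genes in it and 5120th by mean level at 8 days.

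**Figure D1:**
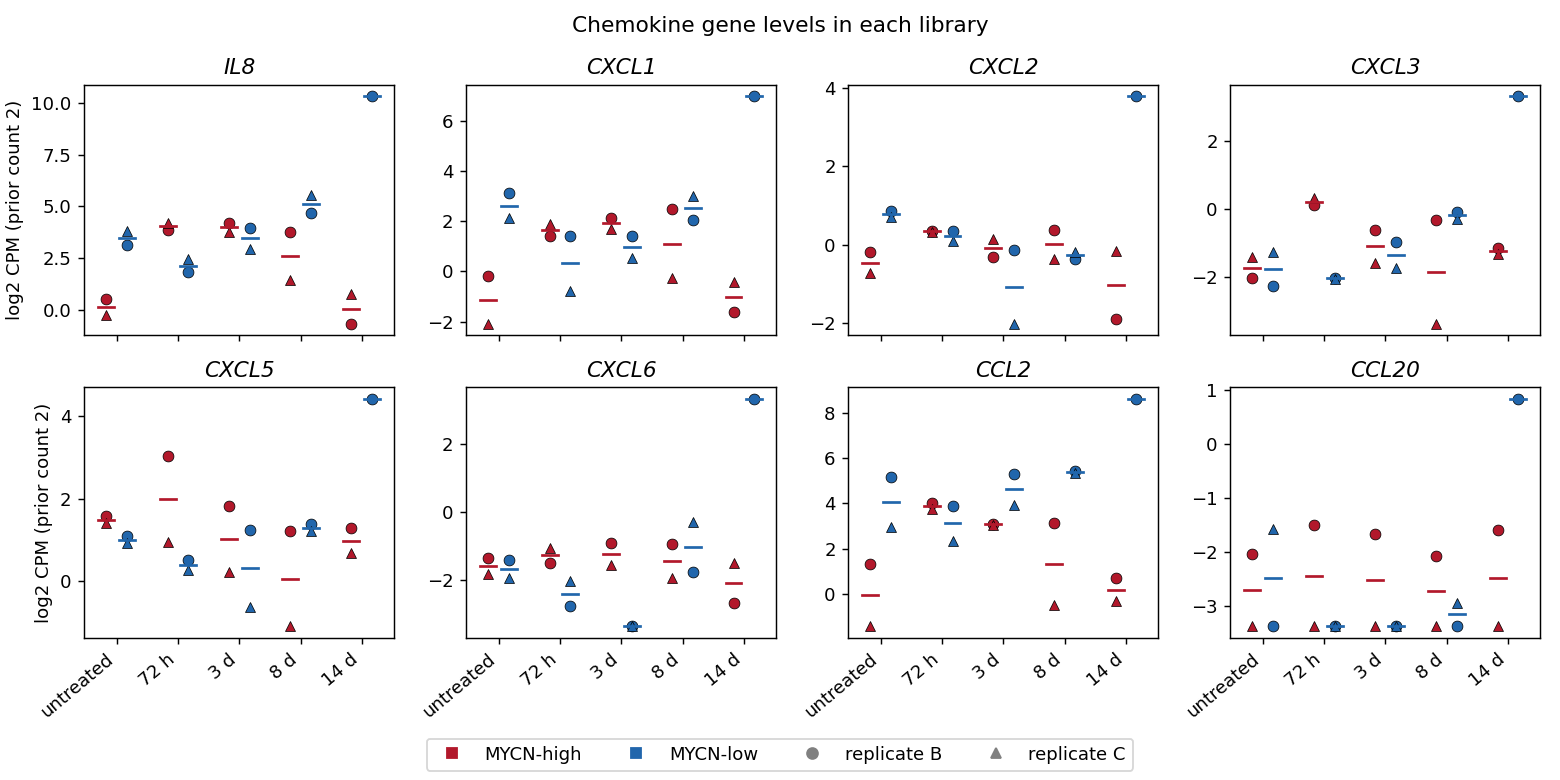
Level of each chemokine gene in every library, as log2 CPM with a prior count of 2 (vertical axis), by time (horizontal axis), with MYCN-high cells left of MYCN-low cells. Circles are replicate B, triangles replicate C and bars the group mean (n = 2, and n = 1 for MYCN-low at 14 days). In each panel the single 14-day MYCN-low point is the highest.

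IL8 and CCL2 carried most of the chemokine RNA in most libraries. Per kilobase of exon (GENCODE release 29), the levels in MYCN-low cells at 14 days were 563 CPM for IL8, 196 for CCL2, 97.2 for CXCL1, 9.07 for CXCL2, 8.43 for CXCL5, 4.55 for CXCL6, 4.41 for CXCL3 and 1.05 for CCL20. CCL20 was barely detected, with 60 counts in all, 33 of them in that library, and 11 libraries at 0. CXCL6 had 195 counts there and 0 to 21 counts elsewhere. CXCL6 and CCL20 would not have passed the filter on low counts without that library, so the other 6 genes are also counted by themselves below where it enters. CXCL1, CXCL2 and CXCL3 are close relatives, and between 5.26% and 9.24% of the 50-base stretches of their longest transcripts also occur in another of them, so reads can be lost or split among these 3.

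By group mean, IL8 was ordered from 1.03 CPM in untreated MYCN-high cells and 1.07 CPM in MYCN-high cells at 14 days, through 4.41 CPM in MYCN-low cells at 72 h, to 35.9 CPM in MYCN-low cells at 8 days and 1283 CPM at 14 days. The libraries of neighbouring groups in this order were separate at the last of these steps, below MYCN-low at 8 days and below MYCN-low at 72 h, and overlapped at the other 6. CCL2 had the same lowest and highest 2 groups, at 1.11 and 1.33 CPM in MYCN-high cells at 14 days and untreated, and 41.7 and 390 CPM in MYCN-low cells at 8 and 14 days. CXCL2 stayed between 0.152 and 1.70 CPM and CXCL3 between 0 and 1.15 CPM in the other 18 libraries. The second highest group of CXCL3 and CXCL5 was MYCN-high cells at 72 h, and that of CXCL1 and CXCL2 was untreated MYCN-low cells.

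In untreated cells, 3 of the 8 genes passed between the states, all lower in MYCN-high cells, where 18.6% of all tested genes passed lower. IL8 had 1.32 and 0.740 CPM in MYCN-high libraries, against 8.74 and 14.0 CPM in MYCN-low libraries. CXCL1, a neutrophil attractant first described as a melanoma growth factor, had 0.780 and 0.139 CPM in MYCN-high libraries, against 8.74 and 4.23 CPM in MYCN-low libraries. CCL2 had 2.39 and 0.278 CPM in MYCN-high libraries, against 35.9 and 7.66 CPM in MYCN-low libraries. The groups did not overlap in any of the 3, although the replicates of CCL2 lay far apart in both states. The fold changes were -3.47 ± 0.68 for IL8 (edgeR adjusted p = 0.00124), -3.81 ± 0.91 for CXCL1 (adjusted p = 0.00484) and -4.03 ± 1.01 for CCL2 (adjusted p = 0.00622).

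The call of IL8 held without each library. Without MYCN-high replicate C, the adjusted p was 0.0622 for CXCL1 and 0.0706 for CCL2, and without MYCN-low replicate B that of CCL2 was 0.101. CXCL2 had 0.780 and 0.509 CPM in MYCN-high libraries, against 1.70 and 1.56 CPM in MYCN-low libraries, and missed the threshold (adjusted p = 0.117). CXCL3, CXCL5 and CXCL6 had fold changes between -0.07 and 0.50, and CCL20 had 3 counts in MYCN-high and 6 in MYCN-low cells.

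**Figure D2:**
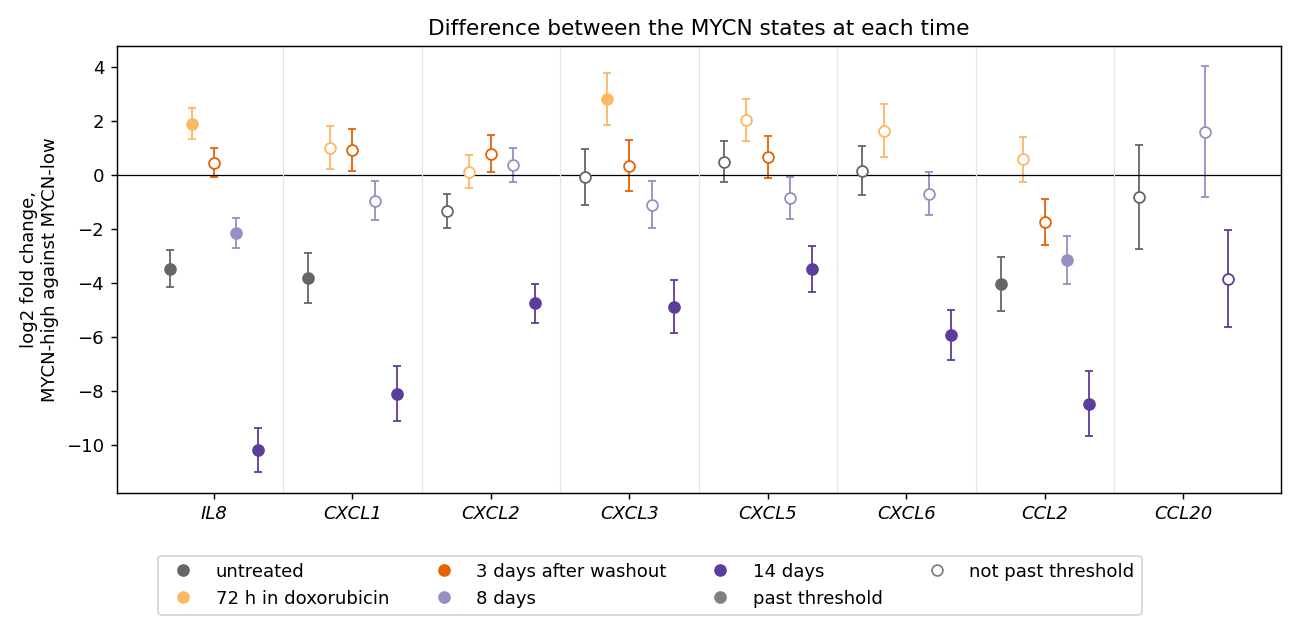
Log2 fold change between the states, MYCN-high over MYCN-low (vertical axis) for each gene at each time, with bars of 1 standard error and filled points where the gene passed. Comparisons with a group at 0 counts are not drawn. IL8 lies at -3.47 in untreated cells, 1.90 after 72 h of drug and -10.19 at 14 days.

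After 72 h of doxorubicin the MYCN-high cells had higher IL8, CXCL1 and CCL2 than untreated MYCN-high cells. IL8 reached 14.3 and 18.6 CPM in treated libraries, against 1.32 and 0.740 CPM in untreated ones, a fold change of 4.00 ± 0.68 (edgeR adjusted p = 0.000303). CCL2 had 16.0 and 13.2 CPM in treated libraries, against 2.39 and 0.278 CPM in untreated ones, a change of 3.46 ± 1.00 (adjusted p = 0.0131). CXCL1 had 2.55 and 3.64 CPM in treated libraries, against 0.780 and 0.139 CPM in untreated ones, a change of 2.75 ± 0.93 (adjusted p = 0.0305). The treated libraries lay above the untreated ones in all 3 genes. These were 3 of 8 genes, against 18.3% of all tested genes that passed higher. CXCL3 had 0.976 and 1.15 CPM in treated libraries and 0.146 and 0.278 CPM in untreated ones, and passed by DESeq2 (adjusted p = 0.0392) but not by edgeR (adjusted p = 0.0641).

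Only IL8 of the 3 passed whichever library was left out. Without untreated replicate C the adjusted p was 0.210 for CXCL1 and 0.120 for CCL2, and without treated replicate C it was 0.107 for CXCL1. CXCL5 was read very unevenly, with 8.10 CPM in replicate B and 1.82 CPM in replicate C of treated cells. Replicate B was above replicate C in 9 of 9 groups for CXCL5 and also for CCL2. In MYCN-high cells CCL20 had 3 to 6 counts in each replicate B and 0 in each replicate C.

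In MYCN-low cells 0 of 8 chemokine genes passed after 72 h, by edgeR and by DESeq2, against 22.3% of all tested genes. Of the 8, 2 had an unadjusted p under 0.05, as had 5272 of the 14793 tested genes. IL8 had 3.46 and 5.36 CPM in treated libraries, against 8.74 and 14.0 CPM in untreated ones, and the change of -1.37 ± 0.57 missed the threshold (edgeR adjusted p = 0.0990). CXCL1 had 2.58 and 0.483 CPM in treated libraries, against 8.74 and 4.23 CPM in untreated ones (-2.07 ± 0.78, adjusted p = 0.0702). Both treated libraries lay below both untreated ones in these 2 genes. All 8 fitted changes were below 0 under TMM and under ERCC scaling, and CCL20 was at 0 counts in treated cells.

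The change at 72 h itself differed between the states for IL8, CXCL1 and CCL2. The difference in response, MYCN-high minus MYCN-low, was 5.37 ± 0.89 for IL8 (edgeR adjusted p = 0.00351), 4.82 ± 1.22 for CXCL1 (adjusted p = 0.0226) and 4.60 ± 1.30 for CCL2 (adjusted p = 0.0358). These were 3 of 8 genes, against 6.63% of all tested genes that passed higher. The comparisons use the same untreated libraries as those above. IL8 passed without each library, while CXCL1 was lost in 4 and CCL2 in 5 of the 8 omissions, at adjusted p-values of up to 0.0952 and 0.185. The highest came without untreated MYCN-high replicate C for CXCL1 and without untreated MYCN-low replicate B for CCL2.

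**Figure D3:**
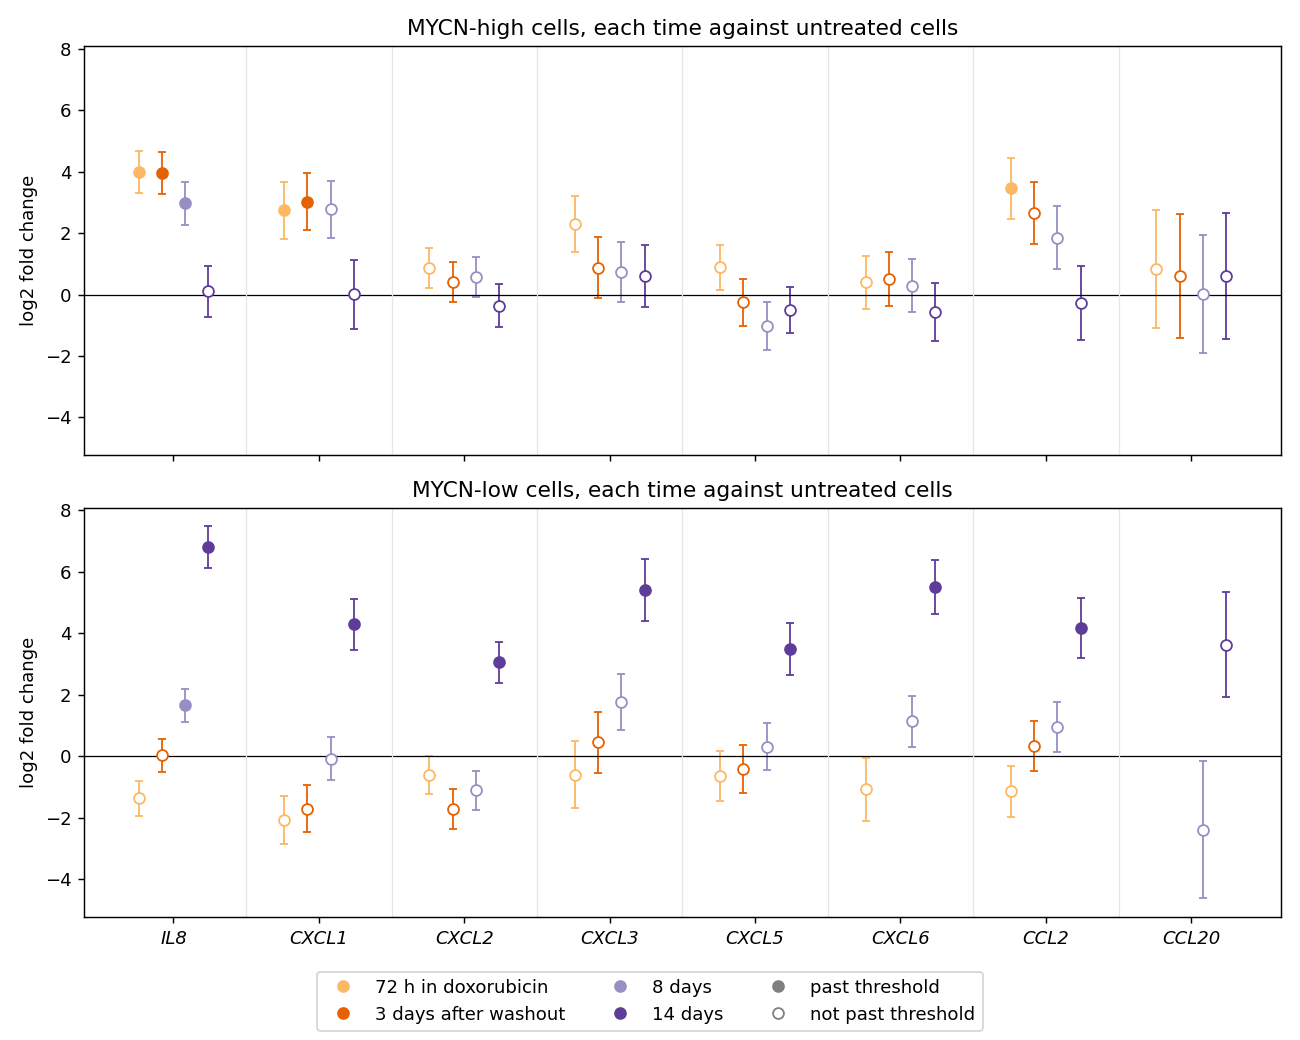
Log2 fold change against untreated cells of the same state (vertical axis) for each gene at each time, with bars of 1 standard error, MYCN-high cells above and MYCN-low cells below. Filled points passed, and comparisons with a group at 0 counts are not drawn. After 72 h IL8 lies at 4.00 in MYCN-high and -1.37 in MYCN-low cells, and at 14 days at 0.10 in MYCN-high and 6.81 in MYCN-low cells.

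Directly between the treated states at 72 h, IL8 and CXCL3 were higher in MYCN-high cells. IL8 had 14.3 and 18.6 CPM in MYCN-high libraries, against 3.46 and 5.36 CPM in MYCN-low libraries (1.90 ± 0.57, edgeR adjusted p = 0.0206). CXCL3, another CXCR2 ligand, had 0.976 and 1.15 CPM in MYCN-high libraries, against 0.146 and 0.145 CPM in MYCN-low libraries (2.82 ± 0.97, adjusted p = 0.0388). These were 2 of 8 genes, against 15.5% of all tested genes that passed higher. CXCL5 had 8.10 and 1.82 CPM in MYCN-high libraries, against 1.31 and 1.11 CPM in MYCN-low libraries, and missed the threshold (2.03 ± 0.78, adjusted p = 0.0608). It passed with DESeq2 (0.0271) and without MYCN-high replicate C (0.0228). The calls of IL8 and CXCL3 were weak, since IL8 lost its call in 3 of the 4 omissions of a 72 h library (adjusted p of up to 0.157, without MYCN-low replicate B) and CXCL3 in 4 of 4 (up to 0.158, without the same library).

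At 3 days after washout the MYCN-high cells still had raised IL8 and CXCL1. IL8 had 18.6 and 13.4 CPM, against 1.32 and 0.740 CPM in untreated cells (3.96 ± 0.68, edgeR adjusted p = 0.000559). CXCL1 had 4.29 and 3.14 CPM, against 0.780 and 0.139 CPM in untreated cells (3.02 ± 0.93, adjusted p = 0.0223). CCL2 had 8.37 and 8.24 CPM, against 2.39 and 0.278 CPM in untreated cells, and missed the threshold (adjusted p = 0.0582). This made 2 of 8 genes, against 15.1% of all tested genes that passed higher. The call of CXCL1 was lost without untreated replicate C (adjusted p = 0.168) or day 3 replicate B (0.100).

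In MYCN-low cells at 3 days IL8 had 15.5 and 7.69 CPM, overlapping the 8.74 and 14.0 CPM of untreated cells. CXCL6, a ligand of CXCR1 and CXCR2, was at 0 counts in both MYCN-low libraries, against 9 counts in untreated MYCN-low cells and 12 counts in MYCN-high cells at 3 days. With a floor of 3 counts over the group it was at least 2.90-fold lower than in untreated MYCN-low cells and at least 4.75-fold higher in MYCN-high than in MYCN-low cells. CXCL6 was the single gene of 8 to pass in each of these comparisons, against 12.7% of tested genes that passed lower over time and 17% that passed higher between the states. Of the 6 genes that pass the filter without the 14-day MYCN-low library, 0 passed in either comparison. Both calls of CXCL6 rest on few counts, and without MYCN-low day 3 replicate B the adjusted p was 0.153 over time and 0.0718 between the states. Without replicate C it was 0.132 and 0.0575, without untreated MYCN-low replicate B it was 0.111 over time, and without MYCN-high day 3 replicate B it was 0.0612 between the states. The difference in response at 3 days was 3.94 ± 0.87 for IL8 (adjusted p = 0.0140) and 4.73 ± 1.20 for CXCL1 (adjusted p = 0.0285), or 2 of 8 genes against 5.1% of tested genes that passed higher. Without untreated MYCN-high replicate C these were at an adjusted p of 0.0765 and 0.120. IL8 was also lost without MYCN-high day 3 replicate B (0.0502) or MYCN-low day 3 replicate C (0.0543), and CXCL1 in 6 of the 8 omissions.

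By 8 days the MYCN-high replicates had parted. IL8 had 13.4 CPM in replicate B and 2.64 CPM in replicate C, CXCL1 had 5.44 and 0.738 CPM, and CCL2 had 8.74 and 0.633 CPM. The p53 target CDKN1A was also higher in replicate B of this group, at 158 CPM, than in replicate C, at 61.0 CPM. Its part in the chemokine levels was not tested. IL8 was still above untreated cells in both (2.97 ± 0.69, edgeR adjusted p = 0.0149), as 1 of 8 genes against 4.49% of all tested genes that passed higher. That call was lost without day 8 replicate B (1.36, adjusted p = 0.325) and without untreated replicate B (0.0854) or C (0.120).

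MYCN-low cells at 8 days had the second highest IL8 of all groups. IL8 had 25.5 and 46.2 CPM, against 8.74 and 14.0 CPM in untreated MYCN-low cells (1.65 ± 0.54, edgeR adjusted p = 0.0350), again 1 of 8 genes, against 10.2% that passed higher. DESeq2 gave an adjusted p of 0.0586, and edgeR gave 0.212 without day 8 replicate C and 0.180 without untreated replicate B, so this call is not firm. CCL2 had 43.4 and 40.1 CPM, above the 35.9 and 7.66 CPM of untreated cells without passing (adjusted p = 0.415).

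Between the states at 8 days, IL8 and CCL2 were lower in MYCN-high cells. The fold changes were -2.15 ± 0.55 for IL8 (edgeR adjusted p = 0.00505) and -3.13 ± 0.89 for CCL2 (adjusted p = 0.0100). All MYCN-high libraries lay below all MYCN-low libraries in both genes. They were 2 of 8 genes, against 20.5% of all tested genes that passed lower. Without MYCN-high replicate B, the higher of the pair, 4 genes passed, and without replicate C the adjusted p of CCL2 was 0.0809. The responses at 8 days differed between the states for 0 of 8 genes by edgeR and by DESeq2, against 6.35% of all tested genes. At an unadjusted p under 0.05 there was 1 of the 8 genes, against 3384 of the 14793 tested genes.

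At 14 days IL8 in MYCN-high cells differed from untreated cells by less than the spread between replicates. IL8 had 0.527 and 1.61 CPM, against 1.32 and 0.740 CPM in untreated cells, a fold change of 0.10 ± 0.84. CXCL1 averaged 0.444 CPM at 14 days and 0.459 CPM in untreated cells, and CCL2 averaged 1.11 and 1.33 CPM (SD of 0.578 and 1.49, n = 2 each). The libraries overlapped in these 3 genes. None of the 8 genes passed by edgeR or DESeq2, none had an unadjusted p under 0.05, and edgeR called 0% of all tested genes, with 1245 at an unadjusted p under 0.05. IL8 was lower than at 8 days (-2.88 ± 0.69, adjusted p = 0.0393), as 1 of 8 genes against 1.35% that passed lower, but not without day 8 replicate B (-1.26, adjusted p = 0.574), day 14 replicate B (0.344) or day 14 replicate C (0.0677).

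The single MYCN-low library at 14 days was the opposite extreme. IL8 had 1283 CPM in it, against 8.74 and 14.0 CPM in untreated MYCN-low libraries, a fold change of 6.81 ± 0.68 (edgeR adjusted p = 5.69e-05). CXCL1 had 126 CPM, against 8.74 and 4.23 CPM in untreated libraries (4.29 ± 0.82, adjusted p = 0.00257). CCL2 had 390 CPM, against 35.9 and 7.66 CPM in untreated libraries (4.17 ± 0.97, adjusted p = 0.00799). The library lay above both untreated ones by a wide margin in each gene.

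The less abundant CXC genes moved the same way. CXCL2 had 13.6 CPM, against 1.70 and 1.56 CPM in untreated MYCN-low libraries (3.06 ± 0.67, edgeR adjusted p = 0.00555). CXCL3 had 9.78 CPM, against 0.110 and 0.319 CPM (5.41 ± 1.00, adjusted p = 0.00204), and CXCL5 had 21.4 CPM, against 2.03 and 1.80 CPM (3.48 ± 0.85, adjusted p = 0.0109). CXCL6 had 9.93 CPM, against a mean of 0.217 CPM (5.51 ± 0.89, adjusted p = 0.00102). Of 8 genes 7 passed higher, against 7.63% of all tested genes, and so did 6 of the 6 that passed the filter without this library. CCL20 had 33 counts, against 6 in the untreated libraries together, and missed the threshold (adjusted p = 0.161). The 7 calls held when either untreated replicate was left out and with DESeq2. The group has 1 library, whose spread is assumed to be that of the other groups, so culture and group cannot be told apart.

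Against the same MYCN-low library, MYCN-high cells at 14 days had far less chemokine RNA. IL8 had 0.527 and 1.61 CPM in MYCN-high libraries, against 1283 CPM in the MYCN-low library (-10.19 ± 0.81, edgeR adjusted p = 1.26e-06). CCL2 had 1.52 and 0.705 CPM in MYCN-high libraries, against 390 CPM (-8.47 ± 1.20, adjusted p = 6.88e-05), and CXCL1 had 0.234 and 0.655 CPM, against 126 CPM (-8.10 ± 1.02, adjusted p = 3.03e-05). All but CCL20 passed, 7 of 8 genes, against 20.5% of all tested genes that passed lower, as did 6 of the 6 that passed the filter without the MYCN-low library, and the smallest of the 7 changes was that of CXCL5 (-3.47 ± 0.86). The difference in response at 14 days passed for 4 of 8 genes, against 2.53% that passed lower, and for 3 of the 6 that passed the filter without the MYCN-low library, with -6.71 ± 1.08 for IL8 (adjusted p = 0.00307) and -6.07 ± 1.31 for CXCL6 (adjusted p = 0.0155). CXCL2 (-3.42 ± 0.97, adjusted p = 0.0431) and CXCL5 (-3.98 ± 1.15, adjusted p = 0.0473) also passed. IL8 alone of the 4 passed in every omission of a library. Without untreated MYCN-high replicate B, CXCL6 was at an adjusted p of 0.0746, CXCL2 at 0.149 and CXCL5 at 0.113. CXCL2 was lost in 4 and CXCL5 in 6 of the 6 omissions, at adjusted p-values of up to 0.149 and, without MYCN-high day 14 replicate C, 0.143.

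Among the 6 steps between successive times, that from 8 to 14 days in MYCN-low cells had a median change of 3.92 over the 6 chemokine genes that pass the filter without the 14-day library, and the medians of the other 5 steps lay between -1.51 and 1.03. Of 14793 genes tested, edgeR called 2 over that step (0.0135%), IL8 (5.16 ± 0.64, adjusted p = 0.00669) and the interleukin gene IL1B (3.78 ± 0.46, adjusted p = 0.00669), with 361 genes at an unadjusted p under 0.05. These 6 chemokine genes all had an unadjusted p under 0.05 and a fold change above 3, as had CXCL6 and CCL20, which are tested only because of that library. Without day 8 replicate B the adjusted p of IL8 was 0.176, and without replicate C it was 0.0723. DESeq2 called IL8, CXCL2 and CXCL6. Over the earlier steps edgeR called 0 of 8 genes each, while the share of all tested genes called was 0.0541% between 72 h and 3 days and 0.703% between 3 and 8 days in MYCN-low cells, and 1.80% and 13.0% in MYCN-high cells. At an unadjusted p under 0.05 these steps held 2 and 3 chemokine genes in MYCN-low cells and 0 and 0 in MYCN-high cells. Of all 14793 tested genes, 1072 and 848 had such a p in MYCN-low cells and 1528 and 4126 in MYCN-high cells. DESeq2 called 1 chemokine gene, CXCL6 between 3 and 8 days in MYCN-low cells, and none in the other 3 steps.

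Levels of the genes beside the cluster are given for the same step, over which IL8 alone of the 6 cluster genes passed. On chromosome 4, RASSF6 precedes IL8 and MTHFD2L follows CXCL2, with the platelet chemokine genes PF4V1, PF4 and PPBP lying among the 6 CXC genes. PF4V1 and PF4 had 1 count each and PPBP had 0 counts in the 14-day MYCN-low library. RASSF6 had 2.09 CPM at 14 days and 1.39 CPM at 8 days, and MTHFD2L had 9.63 CPM at 14 days and 5.85 CPM at 8 days, both with an edgeR adjusted p of 1. The growth factor genes EPGN and EREG lie beyond MTHFD2L, and both were higher at 14 days without passing. EPGN had 3.36 CPM at 14 days and 1.6 CPM at 8 days, a fold change of 1.1. EREG had 0.662 and 0.268 CPM, a fold change of 1.3. The highest level in any other library was 4.24 CPM for EPGN and 0.604 CPM for EREG.

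**Figure D4:**
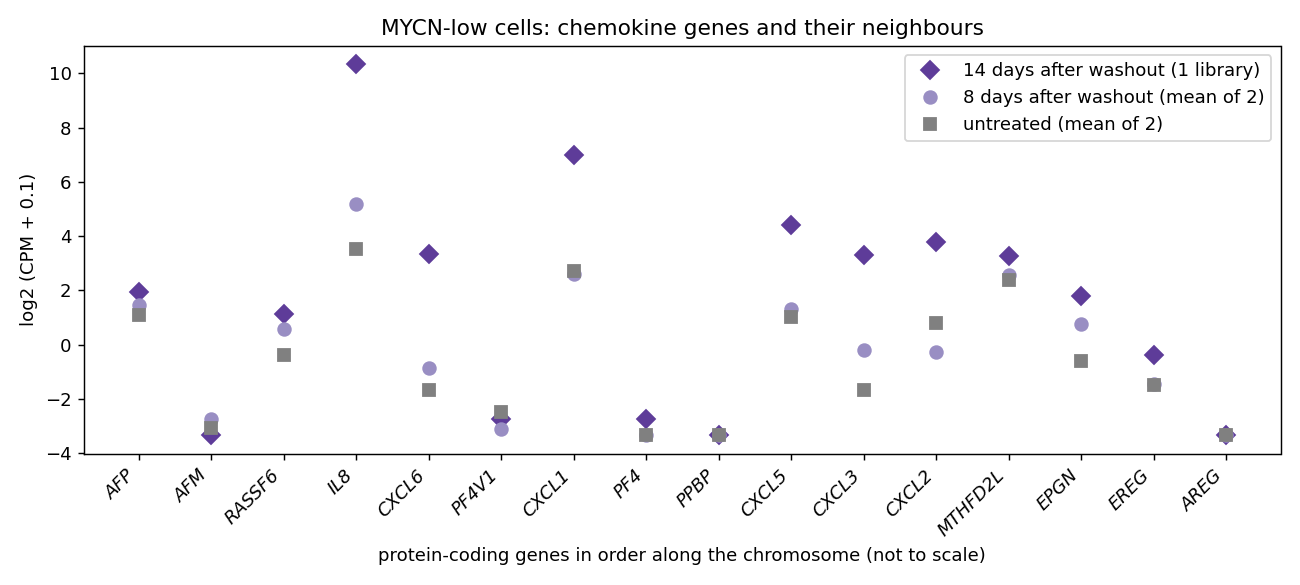
Level in MYCN-low cells as log2 of CPM plus 0.1 (vertical axis) of the genes around the chemokine cluster, in their order along the chromosome (horizontal axis, not to scale). Diamonds are the 14-day library, circles the mean of 2 libraries at 8 days and squares the mean of 2 untreated libraries. IL8, CXCL6, CXCL1, CXCL5, CXCL3 and CXCL2 stand above their 8-day level, and PF4V1, PF4 and PPBP stay near 0 counts.

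Of 30 other chemokine genes on a list drawn up for this comparison, 24 never exceeded 10 counts in any library and 6 were tested. CXCL10 and CCL5, ligands induced by interferon and NF-kappaB, had at most 5 counts in any library. In MYCN-low cells at 14 days against untreated, 1 of the 6 passed higher and 1 lower, where 18.4% of all tested genes passed in either direction. CCL26, an eosinophil attractant, rose to 1.63 CPM, against 0.177 CPM in untreated cells (3.22 ± 1.05, edgeR adjusted p = 0.0452), and CCL7 had 15 counts at 14 days and 0 in untreated cells without passing (adjusted p = 0.0702). CXCL12, which attracts CXCR4-bearing cells, fell to 2.24 CPM in MYCN-low cells at 14 days, against 23.9 CPM in untreated MYCN-low cells (-3.41 ± 0.93, edgeR adjusted p = 0.0193). The receptors CXCR1, CXCR2, CCR2 and CCR6 had at most 5 counts in any library. SDC4, a heparan sulphate proteoglycan that can hold chemokines at the cell surface, was lower in MYCN-high than in MYCN-low cells at 14 days (87.6 and 655 CPM, -2.90 ± 0.50, adjusted p = 0.000299).

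Of the cytokines that induce chemokine genes, IL1B and IL6 were also high in the 14-day MYCN-low library. IL1B, a potent inducer of IL8, had 52.5 CPM in MYCN-low cells at 14 days, against 0.424 CPM in untreated MYCN-low cells (6.90 ± 0.55, edgeR adjusted p = 1.1e-05). IL6 had 36.2 CPM at 14 days and 0.0674 CPM in untreated MYCN-low cells. After 72 h of drug IL1B was lower in MYCN-high than in MYCN-low cells, at a mean of 0.990 and 4.68 CPM (-2.22 ± 0.44, adjusted p = 0.00166). With ERCC scaling this change was 0.74 (adjusted p = 0.641). IL1A had 2.19 CPM in MYCN-high and 0.923 CPM in MYCN-low cells, without passing (adjusted p = 0.338). Against untreated cells of the same state IL1B passed higher in both states (5.08 ± 0.84 in MYCN-high and 3.42 ± 0.49 in MYCN-low cells). IL1A did so in MYCN-high cells alone (6.21 ± 1.43, adjusted p = 0.00323, and 0.363 in MYCN-low cells). The part of these cytokines in the chemokine levels was not tested. Of 18 tested genes on a list of inducers and their receptors, 8 passed higher and 2 lower in MYCN-low cells at 14 days against untreated, with a median change of 0.35 (all genes -0.05), where 18.4% of all tested genes passed in either direction. TNF, a main inducer on that list, was at 0 counts in all 19 libraries.

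Of 22 NF-kappaB subunits and feedback genes tested, 10 passed higher and 2 lower in MYCN-high cells at 72 h, with a median change of 0.68, where 36.2% of all tested genes passed in either direction. In MYCN-low cells 1 passed higher and 4 lower, with a median of -0.48, against 22.3% of all tested genes. TNFAIP3, which limits NF-kappaB signalling, had 15.7 CPM in treated and 1.61 CPM in untreated MYCN-high cells (3.29 ± 0.43, edgeR adjusted p = 3.12e-05). RELB fell in MYCN-low cells, to 4.83 CPM in treated against 14.5 CPM in untreated cells (-1.58 ± 0.34, adjusted p = 0.00373). The response differed between the states for 8 of the 22, against 10.7% of all tested genes, among them NFKBIA, the inhibitor that NF-kappaB itself induces (1.54 ± 0.28, adjusted p = 0.00602). In MYCN-low cells at 14 days, against untreated, 5 rose and 0 fell, where 18.4% of all tested genes passed in either direction. The smallest p-values included those of NFKBIZ (3.26 ± 0.36, adjusted p = 7.45e-05), a cofactor of secondary NF-kappaB targets, and BIRC3 (2.99 ± 0.71, adjusted p = 0.00888), which restrains cell death downstream of TNF receptors.

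The lists that follow are read against the same 18.4% of all tested genes that passed between MYCN-low cells at 14 days and untreated ones. Of 12 AP-1 and C/EBP genes, 0 rose and 1, FOSL2, fell in MYCN-low cells at 14 days against untreated (-1.15 ± 0.37, edgeR adjusted p = 0.0435, and 0.0569 with DESeq2 size factors). Of 11 genes that control the decay of AU-rich messenger RNAs, 2 rose and 4 fell. ZC3H12A, a ribonuclease that degrades cytokine messages, rose (1.52 ± 0.36, adjusted p = 0.00897), and the decay factors KHSRP (-1.22 ± 0.21, adjusted p = 0.00132) and HNRNPD (-0.98 ± 0.28, adjusted p = 0.0233) fell. The regulators MAPKAPK2 (-0.77 ± 0.22, adjusted p = 0.0256) and ELAVL1 (-0.60 ± 0.18, adjusted p = 0.0339) fell as well. KHSRP and HNRNPD were already lower in MYCN-low cells after 72 h (-0.87 ± 0.16 and -1.27 ± 0.22). From 8 to 14 days they changed by -0.14 ± 0.20 and 0.05 ± 0.27. Of 18 tested genes on a list of factors linked to senescence, 8 rose and 0 fell. Besides secreted factors the list holds the adhesion molecules VCAM1 and ICAM1, and it repeats IL6 of the inducer list. VCAM1 and IL6 were among the 8 that rose. The 8 also included the stress cytokine GDF15 (4.98 ± 0.72, adjusted p = 0.000433) and the vascular growth factor VEGFA (2.25 ± 0.29, adjusted p = 0.000212).

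Across the 19 libraries the genes most like the mean chemokine profile by Pearson correlation of log2 CPM were CSF2 (r = 0.89), C12orf50 and NFKBIA (0.88 each), PNLIPRP3 (0.87), SOD2 and ZC3H12A (0.86 each), BIRC3 and BMP2 (0.85 each), and FOLR4 and RCAN2 (0.84 each). The libraries share their groups, and the 14-day MYCN-low library weighs heavily. Without it, over 18 libraries, BIRC3 came first (r = 0.85), NFKBIA was at 0.84, BMP2 at 0.77, and CSF2 and PNLIPRP3 at 0.71. ZC3H12A was then at 0.64, C12orf50 and RCAN2 at 0.59, SOD2 at 0.52 and FOLR4 at 0.50. C12orf50, PNLIPRP3 and FOLR4 had 0.713, 0.662 and 0.560 CPM in that library. Their means in the other groups were at most 0.101, 0.157 and 0.130 CPM, near 0 counts, so their place in the ranking rests on that library. IL8 alone was most like IQUB and TPBG (0.87 each), IL4I1, NFKBIZ and STC1 (0.86 each). Among the 8 members, 26 of 28 pairs had r over 0.5 with all libraries and 7 of 28 without that library. IL8, CXCL1 and CCL2 kept together (r of 0.87 for IL8 with CXCL1 and 0.83 for IL8 with CCL2 over 18 libraries), while CXCL2 with CXCL3 had an r of 0.10 over these 18 and 0.62 over all 19.

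The cultures were also read for markers of other cells. The 10 leukocyte and macrophage markers summed to 67.9 CPM in MYCN-low cells at 14 days and to 52.9 to 81.4 CPM in untreated MYCN-low cells, nearly all of it CD68 (64.0 and 65.7 CPM on average), a lysosomal gene of many cell types. AIF1 and TYROBP, defining genes of macrophages, were at 0 counts in both groups. CD163 had 0.407 CPM at 14 days and 0 CPM in untreated cells, without passing. CD14 (0.102 and 0.0199 CPM) and FCER1G (0.204 and 0.0598 CPM) were also higher at 14 days and were not tested. CSF1R was lower (0.306 and 1.21 CPM) without passing, and ITGAM overlapped. PTPRC, the pan-leukocyte gene CD45, passed higher at 14 days at a low level (2.04 and 0.0199 CPM, edgeR adjusted p = 0.0130), and so did LYZ (0.713 CPM at 14 days, at 0 counts in untreated cells, adjusted p = 0.0326). PTPRC had 0.827 and 1.57 CPM at 8 days, when IL8 stood at 25.5 and 46.2 CPM. The part of these leukocyte markers in the chemokine levels at 14 days was not tested. In MYCN-high cells the markers summed to 51.2 to 54.9 CPM after 72 h and 12.2 to 16.0 CPM untreated, again nearly all CD68 (1.97 ± 0.38, adjusted p = 0.000821). ITGAM, a myeloid integrin, also passed higher there (0.714 CPM after 72 h, at 0 counts untreated, adjusted p = 0.00979), as did the endothelial receptor TEK (0.327 CPM after 72 h, at 0 counts untreated, adjusted p = 0.0217). TYROBP had 0.117 CPM after 72 h and 0 counts untreated and was not tested. The response at 72 h differed between the states for CD68 (2.44 ± 0.52, adjusted p = 0.0115) and ITGAM (adjusted p = 0.0499). The part of these markers in the 72 h result was not tested. The 5 endothelial markers summed to 2.55 CPM in MYCN-low cells at 14 days and to at most 1.70 CPM in the other 18 libraries.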

How the data were processed

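Total RNA was spiked with ERCC RNAs, freed of ribosomal RNA (RiboGold) and made into ScriptSeq libraries, per the labels' protocols, although the molecule field names polyA RNA. The submitters' processing notes list STAR 2.4.0h1, HTSeq and hg19. The annotation and strand setting are not given in the sources used here, so reads of overlapping or near-identical genes are uncertain. The deposited table holds raw counts per gene symbol in 19 libraries, 23367 genes and 92 ERCC RNAs, and 0 columns of other samples.

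The counts were fitted with edgeR 4.0.16 under R 4.3.3 (filterByExpr, TMM, quasi-likelihood test, 1 coefficient per group, 9 residual degrees of freedom, biological coefficient of variation 0.204). All 19 libraries entered 1 fit, tested in 23 contrasts and adjusted over 14793 genes at 0.05. With 2 libraries a group, p-values measure only the spread between these cultures. Fold bounds against a group at 0 used 3 counts for the whole group and cover counting error only. Correlations used log2 CPM with a prior count of 2. Alternatives were DESeq2 1.42.0 (size factors and Wald test), ERCC scaling, no filter, the replicate letter as a block and leaving out each library. Leaving the 14-day MYCN-low library out of the fit and of the correlations was added after seeing the data. The procedure was tested on simulated counts.

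The chemokine genes and all lists were chosen with earlier results of these data known. Named genes are the members, up to 4 genes of a list by smallest p with at least 1 CPM in a group, and the 10 genes (5 for IL8) most correlated with the members. CXCL10, CCL5, PF4V1, PF4, PPBP, the cell type markers, TNF, IL1A and IL1B after 72 h, ELAVL1, CCL7, the chromosome neighbours and the receptors were named beyond that rule. Promoters are from RefSeq (GRCh38.p14), and exon lengths and transcripts are from GENCODE release 29. Python 3.11.15, Biopython 1.88 and matplotlib 3.10.9 served for sequences and plots.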

Additional observations from a re-analysis of the deposited data

Results flagged for a closer look

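The response to doxorubicin differed between the MYCN states in a test of the difference itself for 9 values. After 72 h the difference in log2 fold change, MYCN-high minus MYCN-low, was 5.37 for IL8, 4.82 for CXCL1 and 4.60 for CCL2. At 3 days after washout it was 3.94 for IL8 and 4.73 for CXCL1. At 14 days it was -6.71 for IL8, -3.42 for CXCL2, -3.98 for CXCL5 and -6.07 for CXCL6, all against the single MYCN-low library of that time. CXCL6 was tested only because of that library, so its value there is no independent result. Groups of 1 or 2 libraries were too small to test for single outlying libraries.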

How the results depend on the processing

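No called chemokine change turned its direction under any alternative run, while IL1B between the states at 72 h did so under ERCC scaling (0.74). Counts are of the 8 chemokine genes called. The share of all tested genes called under each alternative is not given, so these counts show only how the calls move. With DESeq2 size factors every count was as reported. ERCC scaling, which moved the median of all genes by up to 2.51 on the log2 scale, gave 0 in each comparison with calls except MYCN-high against MYCN-low at 14 days, where it gave 3. Of 39 called changes 33 were at least as large in size, but these sizes include the shift of all genes and the uneven spike-in share of replicates. The DESeq2 Wald test gave 3 between the states at 72 h, 4 for MYCN-high at 72 h against untreated, 5 for the difference in response at 14 days, 2 for MYCN-low at 3 days against untreated, 0 for MYCN-low at 8 days against untreated, 1 for MYCN-low at 8 against 3 days and 3 for MYCN-low at 14 against 8 days. Without the filter the counts were 5 between the states at 72 h, 3 at 3 days and 3 at 8 days, 4, 3 and 3 for MYCN-high at 72 h, 3 days and 8 days against untreated, 3 for MYCN-low at 72 h, 3 at 3 days and 2 at 8 days against untreated, 3, 2 and 7 for the differences in response at 3, 8 and 14 days, 1, 2 and 3 for the successive steps in MYCN-high cells and 2, 3 and 7 for those in MYCN-low cells. The replicate block gave 1 in place of 0 for MYCN-low at 72 h against untreated, and it ended the call of CXCL2 in the difference in response at 14 days (adjusted p = 0.0538). The block made CXCL5 pass between the states at 72 h (adjusted p = 0.0265), and CCL2 in MYCN-high cells at 3 days (adjusted p = 0.0053) and in the difference in response at 14 days (0.0380). The main fit did not take the letters as a pairing. Over 36 pairs of groups, deviations of the same letter correlated at -0.21 to 0.32, with a median of 0.11 and 22 pairs over 0.1. CXCL5 and CCL2 were higher in replicate B in 9 of 9 groups. Whether the letters mark a pairing is therefore not settled. Without the 14-day MYCN-low library in the fit both calls of CXCL6 at 3 days went to 0, because CXCL6 then failed the filter.

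Leaving out 1 library gave counts of 1 to 3 between the states in untreated cells, 0 to 1 at 72 h, 0 to 1 at 3 days, 1 to 4 at 8 days and 7 to 7 at 14 days. Against untreated cells it gave 1 to 3 at 72 h, 1 to 3 at 3 days and 0 to 2 at 8 days in MYCN-high cells, and 0 to 1, 0 to 1, 0 to 1 and 7 to 7 at the 4 times in MYCN-low cells. The differences in response gave 1 to 3 at 72 h, 0 to 3 at 3 days and 1 to 4 at 14 days. The steps gave 0 to 2 for MYCN-high at 8 against 3 days, 0 to 1 at 14 against 8 days, 0 to 1 for MYCN-low at 8 against 3 days and 0 to 0 at 14 against 8 days. CCL20 and CXCL6 were limited by depth in all groups but MYCN-low at 14 days, where 3 counts are 0.153 CPM. Under ERCC scaling the lists of regulators and of factors linked to senescence lost most calls as well. Of 22 NF-kappaB genes, 0 were then called in MYCN-high cells at 72 h and 0 in MYCN-low cells at 14 days. The median of the NF-kappaB genes in MYCN-low cells at 72 h was then -0.01 (all genes 0.52). Fold changes such as those of TNFAIP3 in MYCN-high cells at 72 h (5.46, all genes 2.37) and NFKBIZ in MYCN-low cells at 14 days (3.53, all genes 0.38) were no smaller than under TMM.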
